A study of Mus musculus with 4 samples.

Results

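GABA, glycine and glutamate receptor genes were examined in RNA sequencing data from mouse sympathetic ganglia. They were taken as every gene symbol of the deposited table that begins with Gabr, Gabbr, Gria, Grid, Grik or Grin, or that names a metabotropic glutamate receptor (Grm) or a glycine receptor subunit (Glra, Glrb). This gave 53 of 21937 genes, namely 19 GABA-A, 2 GABA-B, 5 glycine, 4 AMPA, 5 kainate, 7 NMDA, 2 delta and 8 metabotropic glutamate receptor genes. The remaining match, Grid2ip, encodes delphilin, a scaffold protein of delta receptors and not a receptor.

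RNA was measured in the superior cervical ganglion of the neck and the stellate ganglion of the upper thorax, taken from adult mice (P60, postnatal day 60). The series addressed the functions of the transcription factors Hand2 and Gata3 in adult sympathetic neurons. Its 4 samples are 1 pool per genotype. The Hand2 mutant (labelled B6.129/SVJHand2flox/del::C57BL/6P1DbhCreERT2) and the Hand2 control (B6.129/SVJHand2flox/+::C57BL/6P1DbhCreERT2) were each a pool of 16 ganglia of 4 mice. The Gata3 mutant (B6.126/SV129Gata3flox/flox::C57BL/6P1DBhCreERT2) pooled 32 ganglia from 8 mice, and the Gata3 control (B6.129/SV129Gata3flox/+::C57BL/6P1DbhCreERT2) 16 ganglia from 4 mice. All groups, controls included, carried a floxed allele and CreERT2, a Cre recombinase that needs tamoxifen, under the Dbh promoter, and all were given tamoxifen for 10 days. Dbh encodes dopamine beta-hydroxylase of noradrenergic cells, so Cre is targeted to those cells, while the RNA came from whole ganglia with their glia, vessels and connective tissue.

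The deposited values form 2 columns, a mutant and a control side by the name of the sheet, treated here as normalised. The line they come from is not named. Side B is the second column, read as the mutant, and side A is the column with the control heading. With 1 column on each side there is no replicate error, and "higher" and "lower" describe these columns only. The values of side B summed to 19135221 and those of side A to 19343986. They are not known to be totals of reads, so no counting interval is given. Hand2 had a value of 2001 on side B and 4749 on side A, 2.37-fold lower. Its adjusted p is 1.53e-15, per the authors' deposited table. Gata3 had 1050 on side B and 1105 on side A. The sides also differed in genes of other kinds. Xist had 1595 on side B and 114 on side A, and the 4 Y-linked genes examined were listed at 0 on side B and summed to 2558 on side A. By these X and Y transcripts the sides differed in sex make-up, which cannot be told apart from the comparison of mutant and control. All 11 skeletal muscle markers were lower on side B, with sums of 104 on side B and 1895 on side A.

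GABA-A and glycine receptors are chloride channels built of subunits around a pore, and GABA-B receptors are G protein-coupled pairs. AMPA, kainate and NMDA receptors are cation channels opened by glutamate, and metabotropic glutamate receptors act through G proteins. Fast transmission in sympathetic ganglia is cholinergic, so these receptors are known there mainly as modulators, with GABA-A receptors able to depolarise the neurons. Many of these receptors need partner subunits from the same class, and the levels of partners are described together here. The labelled tissue was checked against noradrenergic markers. All 12 were present, among them Th, which encodes tyrosine hydroxylase of the noradrenaline pathway, with 44280 on side B and 47123 on side A.

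Of the 53 genes, 26 had a mean of both sides of at least 20 and are called detected, 13 lay below that, and 14 were listed at 0 on both sides. Across all genes, 4947 (22.6%) were listed at 0 on both sides. Grin3b, with a mean of 21, was the detected gene nearest the limit, and Gabra5 and Grin2d, each with a mean of 17, were the nearest below it. The 14 genes at 0 were Gabra4, Gabra6, Gabrb1, Gabrp, Gabrq, Gabrr3, Glra1, Glra2, Glra3, Glra4, Grin2a, Grm2, Grm5 and Grm6. Levels were compared between genes per kilobase of annotated exon, with the value per kilobase of coding sequence beside it where the length used changed the comparison. Per kilobase of exon the highest, from the top, were Gabbr1, Glrb, Grik5, Grin1, Gria1 and Gria4. This order depends on the length used below the first 2 genes. Per kilobase of coding sequence Gabbr1 and Glrb were again the highest, while Grik5 (609 on side B, 690 on side A) and Grin1 (652 on side B, 686 on side A) lay below Gria1 (870 on side B, 854 on side A), Gria2 and Gria4.

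**Figure D1:**
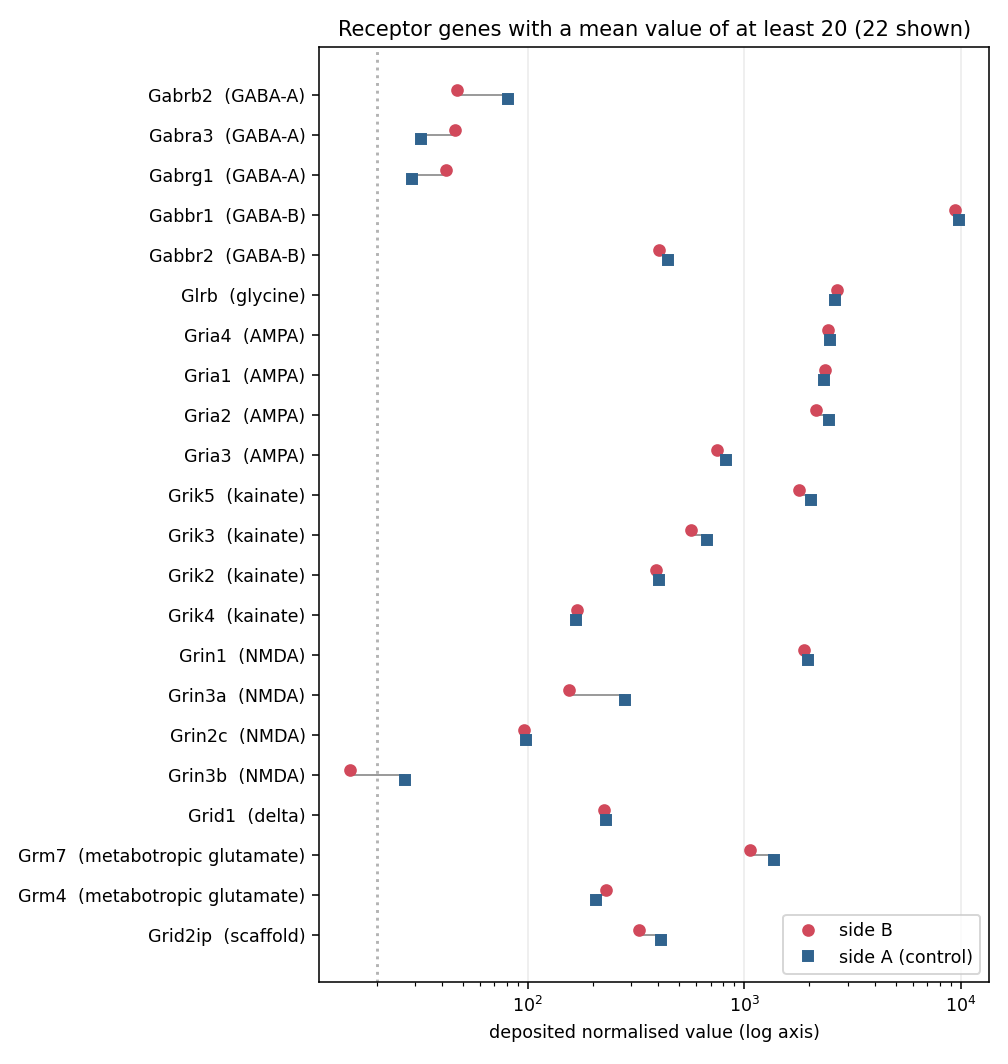
Deposited normalised values (log axis) of 22 detected genes, grouped by receptor class, on side B (circles) and side A (squares), 1 value per side. The points of most genes lie close together. Grin3a (155 on side B, 281 on side A), Gabrb2 (47 and 81) and Grin3b (15 and 27) are the widest pairs with side B lower, and the dotted line marks a value of 20.

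GABA-B receptors held the highest gene of the set. Gabbr1 encodes the subunit that binds GABA, and Gabbr2 encodes the partner that carries it to the cell surface and couples to G proteins. Gabbr1 had 9364 on side B and 9781 on side A, a ratio of B to A of 0.957. Gabbr2 had 403 on side B and 446 on side A, a ratio of 0.904. Per kilobase, Gabbr1 stood at 1418 on side B and 1481 on side A, and Gabbr2 at 70.1 on side B and 77.6 on side A. The level of the GABA-binding subunit was thus 20.2 times that of its partner on side B and 19.1 times on side A.

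Glycine receptors were represented by a single gene. Glrb encodes the beta subunit, which anchors the receptor to the scaffold gephyrin and is known not to form channels without alpha subunits. It had 2677 on side B and 2618 on side A, a ratio of 1.02, and was the second highest gene per kilobase, at 840.5 on side B and 822.0 on side A. Glra1, Glra2, Glra3 and Glra4, which encode the glycine-binding alpha subunits, were all listed at 0 on both sides. Gphn, which encodes gephyrin, had 779 on side B and 857 on side A.

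Among GABA-A receptor genes, 6 of 19 were detected, 7 were below the limit and 6 were listed at 0. The class summed to 3060 on side B and 3301 on side A, a ratio of 0.927. Gabrb2, a beta subunit gene, had 47 on side B and 81 on side A, 1.72-fold lower. Gabrg1, a gamma subunit gene, had 42 on side B and 29 on side A, a ratio of 1.45. These low values sit where ratios spread widely, as given below for all genes.

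Alpha subunits form the GABA binding site together with beta subunits. Gabra3 had 46 on side B and 32 on side A, a ratio of 1.44. Gabra5 had 13 on side B and 21 on side A, and Gabra2 had 7 on side B and 20 on side A. Gabra4 and Gabra6 were listed at 0 on both sides.

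The delta, epsilon, pi and theta subunit genes (Gabrd, Gabre, Gabrp, Gabrq) were scarce and summed to 11 on side B and 13 on side A. The rho genes (Gabrr1, Gabrr2, Gabrr3), known from the retina, summed to 3 on side B and 2 on side A.

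Most GABA-A genes lie in clusters that hold alpha, beta and gamma genes side by side, per the GENCODE annotation of GRCm38. On chromosome 5, Gabrg1 alone was detected, Gabra2 was below the limit and Gabra4 and Gabrb1 were listed at 0. On the X chromosome, Gabra3 was detected, Gabre had 8 on side B and 10 on side A, and Gabrq was listed at 0. Gabrg3, on chromosome 7, had 3 on side B and 0 on side A. Gabra4 overlaps Gabrb1, Gabra5 lies across from another gene, and Grin1 overlaps the antisense gene Grin1os in the annotations used. The strand setting of the counting is not given, so reads of such overlaps may not be separable.

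**Figure D2:**
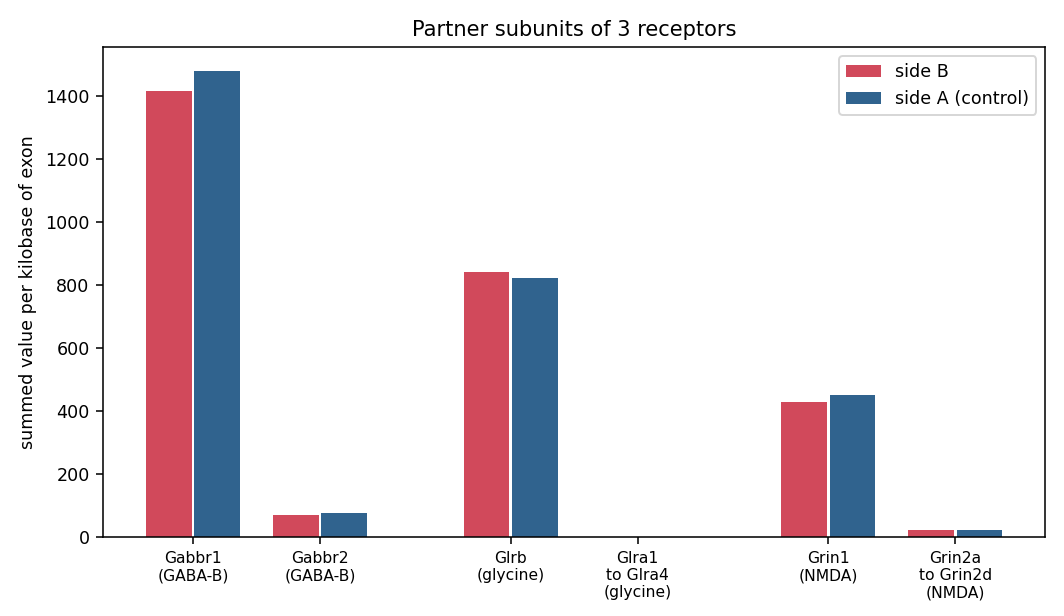
Summed values per kilobase of exon (linear axis from 0) for partner subunits of 3 receptors, with side B left of side A, 1 value per side. Gabbr1 stands near 1418 and 1481 against 70.1 and 77.6 for Gabbr2, Glrb stands alone beside alpha genes listed at 0, and Grin1 stands at 19.3 and 20.7 times the summed Grin2 genes. The Grin3 genes are not drawn.

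NMDA receptors showed a like gap between partners. Grin1 encodes the obligatory subunit, which binds glycine or D-serine, and had 1877 on side B and 1973 on side A. The Grin2 genes encode the glutamate-binding subunits of conventional NMDA receptors. Grin2c had 96 on side B and 98 on side A, Grin2d had 20 and 14, Grin2b had 0 and 1, and Grin2a was listed at 0 on both sides. Per kilobase, Grin1 stood at 19.3 times the sum of the Grin2 genes on side B and 20.7 times on side A. With the Grin3 genes, described next, added to that sum, Grin1 stood at 9.03 times on side B and 6.69 times on side A.

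The Grin3 genes, whose subunits bind glycine, had the lowest ratios among detected NMDA receptor genes. Grin3a had 155 on side B and 281 on side A, 1.81-fold lower (log2 ratio -0.85), and Grin3b had 15 on side B and 27 on side A, 1.80-fold lower. The authors' deposited table gives Grin3a an unadjusted p of 0.0101 and an adjusted p of 0.995, and Grin3b an unadjusted p of 0.450. Per kilobase of exon, Grin3a stood at 1.09 times Grin2c on side B and 1.93 times on side A, but per kilobase of coding sequence at 1.76 times on side B and 3.13 times on side A. Grin3a had the lowest ratio of all 26 detected genes, so it is named here after its values were seen.

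The windows of 250 bases before the annotated start are shown for genes of 3 of these receptors: the abundant Gabbr1, Glrb and Grin1, and the partners Glra2, listed at 0, and Grin2c. They are RefSeq sequences of GRCm38.p6, 5′ to 3′ along the gene's strand, with every CG dinucleotide in capitals. CG dinucleotides are the sites of DNA methylation and are dense in CpG island promoters.
Gabbr1 (chr17:37045716-37045965, + strand): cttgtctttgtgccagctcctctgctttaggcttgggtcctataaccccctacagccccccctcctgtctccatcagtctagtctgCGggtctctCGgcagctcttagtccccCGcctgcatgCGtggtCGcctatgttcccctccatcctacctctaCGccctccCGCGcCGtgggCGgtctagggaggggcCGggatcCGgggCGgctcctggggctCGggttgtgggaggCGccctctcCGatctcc
Glrb (chr3:80913661-80913910, - strand): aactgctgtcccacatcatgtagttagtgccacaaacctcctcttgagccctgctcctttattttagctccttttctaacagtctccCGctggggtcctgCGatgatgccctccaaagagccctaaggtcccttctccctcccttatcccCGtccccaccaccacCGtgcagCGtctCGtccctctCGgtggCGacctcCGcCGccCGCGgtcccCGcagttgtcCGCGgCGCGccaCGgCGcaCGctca
Glra2 (chrX:165327394-165327643, - strand): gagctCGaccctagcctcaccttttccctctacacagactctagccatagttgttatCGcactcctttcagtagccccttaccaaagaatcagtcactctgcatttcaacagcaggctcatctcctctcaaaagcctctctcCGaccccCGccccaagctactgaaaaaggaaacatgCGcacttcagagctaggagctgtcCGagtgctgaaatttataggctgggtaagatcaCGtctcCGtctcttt
Grin1 (chr2:25319188-25319437, - strand): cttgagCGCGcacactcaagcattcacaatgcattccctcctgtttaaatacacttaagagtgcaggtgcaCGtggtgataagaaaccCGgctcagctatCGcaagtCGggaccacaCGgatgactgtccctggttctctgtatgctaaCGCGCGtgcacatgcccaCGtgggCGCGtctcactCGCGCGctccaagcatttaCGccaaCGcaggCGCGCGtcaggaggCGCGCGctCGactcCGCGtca
Grin2c (chr11:115267244-115267493, - strand): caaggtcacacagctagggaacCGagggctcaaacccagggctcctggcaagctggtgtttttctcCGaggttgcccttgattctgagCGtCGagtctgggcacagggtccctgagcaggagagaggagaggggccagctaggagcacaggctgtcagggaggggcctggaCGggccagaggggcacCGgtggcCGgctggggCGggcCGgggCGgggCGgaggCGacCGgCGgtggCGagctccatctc
Over 250 bases there were 16 CG in the Gabbr1 window, 20 for Glrb, 27 for Grin1, 15 for Grin2c and 8 for Glra2. Grin2c held about as many as Gabbr1, so the count did not order these genes by level.

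RefSeq gave windows for 37 of the 53 genes, 45 windows in all, since a gene can have several starts. The median number of CG per window was 11.5 over 22 windows of detected genes, 9 over 11 windows of genes below the limit and 5 over 12 windows of genes listed at 0, against 6 over all 32851 windows in the reference table. At least 10 CG were found in 12 of the 22 windows of detected genes (54.5%), against 37.8% of all windows. Genes below the limit had 3 of 11 such windows (27.3%) and genes at 0 had 4 of 12 (33.3%). The share was thus highest for detected genes but not lowest for genes at 0. These groups hold few windows, and the difference was not tested. Single genes went both ways. Gabra3, which was detected, had no CG in either window, and Gabrq, listed at 0, had 19. The E-box letters CANNTG, the core bound by basic helix-loop-helix factors such as Hand2, read the same on both strands and occurred in 8 of the 22 windows of detected genes (36.4%), 7 of the 11 of genes below the limit (63.6%) and 5 of the 12 of genes at 0 (41.7%), against 66.2% of all windows. The letters AGATAA, bound by GATA factors and searched on both strands, occurred in 0 of the 22 windows of detected genes, 1 of the 11 of genes below the limit (9.09%) and 4 of the 12 of genes at 0 (33.3%). Over all 45 windows of the set that is 5 (11.1%), against 9.99% of all windows in the reference table. Matches of these motifs may share bases, and they are matches of letters and not binding sites.

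All 4 genes of AMPA receptors, the channels of fast glutamate transmission in the brain, were detected. Gria1 had 2368 on side B and 2323 on side A, and Gria4 had 2429 on side B and 2491 on side A. Gria2, the subunit whose edited form keeps calcium out of the channel, had 2152 on side B and 2450 on side A, a ratio of 0.878. Gria3 had 751 on side B and 820 on side A. Per kilobase, the highest, Gria1, was 2.96 times the lowest, Gria3, on side B and 2.66 times on side A. Per kilobase of coding sequence, Gria4 was the highest on side B and Gria2 on side A. Gria2 has 10486 bases of annotated exon and 2649 of coding sequence, so its place depends on the length used. Adarb1, which encodes the enzyme that edits Gria2 transcripts, had 1330 on side B and 1274 on side A, and editing itself is not measured by these values.

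Kainate receptors were led by Grik5. Grik4 and Grik5 encode high-affinity subunits that are known to need Grik1, Grik2 or Grik3 subunits to form channels. Grik5 had 1789 on side B and 2026 on side A, a ratio of 0.883. It took 78.4% of the class per kilobase of exon on side B and 78.9% on side A. Per kilobase of coding sequence its share was 59.7% on side B and 60.4% on side A. Grik3 had 566 on side B and 671 on side A, and Grik2 had 392 on side B and 405 on side A. Grik4 had 168 on side B and 166 on side A. Grik1, a subunit typical of sensory ganglia, had 8 on side B and 9 on side A. Per kilobase of exon Grik5 was 4.63 times the sum of Grik1, Grik2 and Grik3 on side B and 4.64 times on side A, but per kilobase of coding sequence it was 1.73 times on side B and 1.75 times on side A.

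Group III, the metabotropic receptors Grm4, Grm6, Grm7 and Grm8 that couple to inhibitory G proteins, reached 289.5 per kilobase of 290.0 for all 8 metabotropic genes on side B, and 356.6 of 358.0 on side A. Grm7, a presynaptic receptor with low affinity for glutamate, had 1066 on side B and 1366 on side A, a ratio of 0.780 (log2 ratio -0.36). The authors' deposited table gives Grm7 an unadjusted p of 0.0397 and an adjusted p of 1. Grm4 had 229 on side B and 207 on side A, and Grm8 had 0 and 4. Of the other groups, Grm5 and Grm2 were listed at 0, and Grm3 had 1 on side B and 4 on side A.

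Delta receptors are relatives of the glutamate channels that bind cerebellins across the synapse. Grid1 had 224 on side B and 230 on side A, a ratio of 0.974. Grid2ip, the scaffold, had 325 on side B and 412 on side A, a ratio of 0.789. The cerebellin gene Cbln1 had 97 on side B and 83 on side A.

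**Figure D3:**
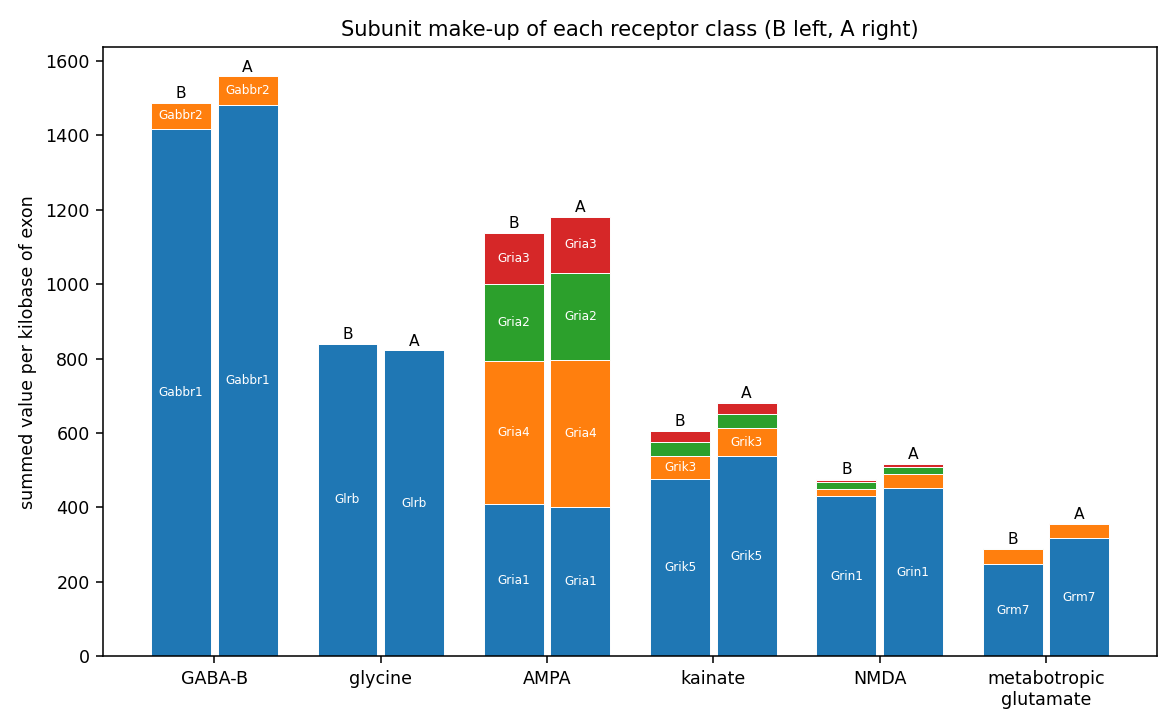
Summed values per kilobase of exon (linear axis from 0), stacked by subunit gene, for 6 receptor classes with side B left of side A, 1 value per side. Single genes fill most of the GABA-B, glycine, kainate, NMDA and metabotropic bars (Grik5 78.4% and 78.9%, Grin1 90.0% and 87.0%, Grm7 85.7% and 88.9%), whereas the AMPA bars hold 4 sizeable parts.

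Between the sides, receptor genes differed by little. No gene of the set with a mean of at least 50 was 2-fold higher or lower on side B, among 23, where 0.0332% of 12043 genes of the table were 2-fold higher and 0.448% were 2-fold lower. At 1.5-fold and a mean of at least 20, 0 of 26 were higher and 3 were lower, namely Grin3a, Gabrb2 and Grin3b, against 1.41% higher and 2.41% lower of 13171 genes. Ratios spread more at low values. Gabrb2 and Grin3b were 2 of 5 members with a mean of 20 to 100, a range in which 6.65% of 2195 genes were higher and 9.43% lower by that much. Grin3a was 1 of 11 members with a mean of 100 to 1000, where 0.529% of 6615 genes were higher and 1.33% lower. No member among the 10 with a mean of 1000 or more passed 1.5-fold, where 0.115% of 4361 genes were higher and 0.504% lower.

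The direction was uneven. Of the 26 detected genes 7 were higher and 19 lower on side B, while of all 13171 genes at that level 50% were higher and 48.8% lower. The median log2 ratio was -0.07 over the 26 and 0.00047 over the 13171. The 26 ratios come from the same 2 columns and are not independent, and no test of this split was made. By class, higher and lower genes were 2 and 4 for GABA-A, 0 and 2 for GABA-B, 1 and 0 for glycine, 1 and 3 for AMPA, 1 and 3 for kainate, 0 and 4 for NMDA and 1 and 1 for metabotropic receptors. The summed values of all 53 genes were 30278 on side B and 32246 on side A, a ratio of 0.939, where the column sums had a ratio of 0.989.

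The authors' deposited table gave none of the 39 genes above 0 an adjusted p under 0.05. Of all 16990 genes with an adjusted p there, 0.0471% passed and were higher and 0.318% passed and were lower. At an unadjusted p under 0.05 it lists Grin3a and Grm7, both lower, or 2 of 39, where 1.58% of 16990 genes were lower and 0.471% higher by that rule. The sources used here do not give the number of libraries behind these p-values, and no genotype of the series had a replicate pool.

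**Figure D4:**
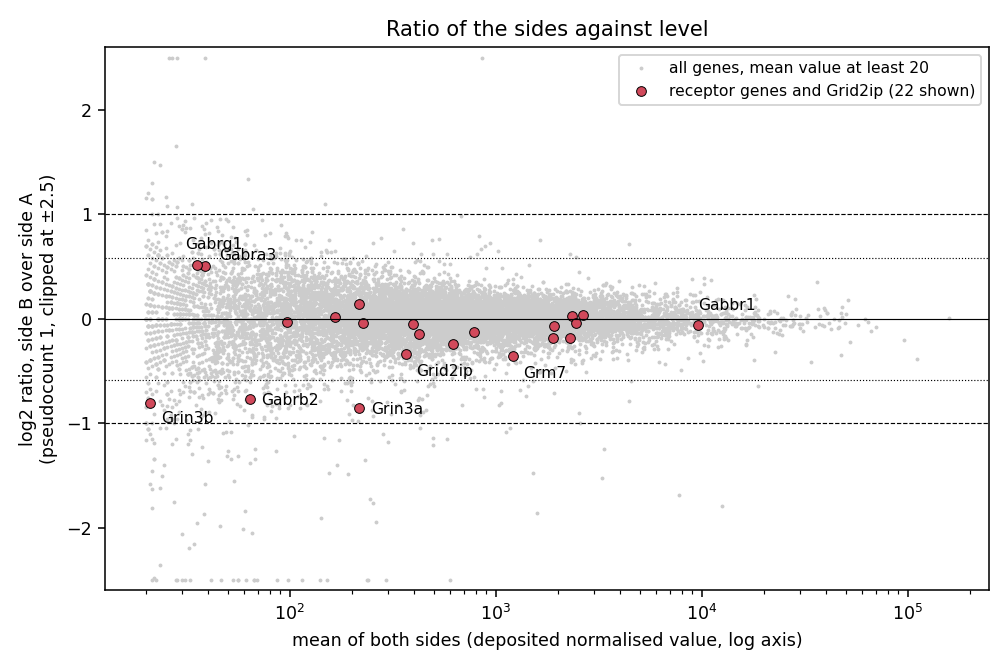
Log2 ratio of side B over side A (pseudocount 1, values beyond ±2.5 drawn at the edge) against the mean of both sides (log axis) for 13171 genes with a mean of at least 20 (grey), with 22 detected members in red. Dashed lines mark 2-fold and dotted lines 1.5-fold. Grin3a, Gabrb2 and Grin3b lie below the lower dotted line, and no member lies beyond the dashed lines.

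Marker lists of cell types were compared between the same sides. Their counts past 1.5-fold stand beside the 1.41% higher and 2.41% lower of all 13171 genes given above. Of 12 noradrenergic markers 10 were lower and 2 higher, with a median log2 ratio of -0.09 and sums of 311820 on side B and 362245 on side A, and Hand2 alone passed 1.5-fold. All 9 satellite glia markers were detected, 7 of them higher, with a median of 0.04 and sums of 73745 on side B and 61619 on side A, and none passed 1.5-fold. Of 15 sensory neuron markers 8 were detected, 7 of them lower and 6 of them by 1.5-fold, with sums of 348 on side B and 1117 on side A, and Mrgprd, Mrgprx1 and Prdm12 were listed at 0 on both sides. The authors' deposited table gives 3 sensory neuron markers an adjusted p under 0.05, all lower, where 0.318% of 16990 genes passed and were lower. Of 12 macrophage markers all were higher, 4 of them by 1.5-fold, with sums of 3941 on side B and 2853 on side A, and the authors' deposited table gives none an adjusted p under 0.05. Of 11 markers of central neurons and astrocytes 5 were detected and none passed 1.5-fold, with sums of 521 on side B and 511 on side A. The 5 were Aldh1l1, Slc1a2, Aqp4, Gad2 and Gfap, with 33 to 236 on side B and 39 to 224 on side A. Among the others, Neurod6 and Neurod2 were listed at 0 on both sides, and Tbr1 had 1 on side B and 3 on side A. The part of these differences in the ratios of the receptor genes was not tested, and in bulk RNA fewer cells of a type and less RNA per cell cannot be told apart.

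The sides differed in X and Y transcripts, and 6 of the receptor genes are X-linked. Gria3 and Gabra3 were detected, with log2 ratios of -0.13 and 0.51. Gabre was below the limit, and Gabrq, Glra2 and Glra4 were listed at 0. The median log2 ratio of the 416 detected X-linked genes of the table was 0.01.

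Genes that make, degrade and carry GABA and glycine were described from a list of 17, of which 13 were detected, 8 higher and 5 lower on side B, with a median log2 ratio of 0.08. None was 2-fold higher or lower, and the authors' deposited table gives none an adjusted p below 0.05. At 1.5-fold 2 of the 13 were higher and 1 was lower, against 1.41% higher and 2.41% lower of 13171 genes. Abat, the transaminase that degrades GABA, had 5785 on side B and 6473 on side A, and Aldh5a1, the next enzyme of that path, had 870 on side B and 943 on side A. Of the GABA transporters, Slc6a11 had 101 on side B and 79 on side A, and Slc6a13 had 69 and 40. The betaine and GABA transporter gene Slc6a12 went the other way, with 139 on side B and 239 on side A and an unadjusted p of 0.0278 in the authors' deposited table. Dld, a shared subunit of the glycine cleavage system and other dehydrogenases, had 2680 on side B and 2825 on side A. Gad1, which makes GABA, had 0 on side B and 2 on side A, Gad2 had 48 and 44, and the vesicular transporter gene Slc32a1 and the neuronal glycine transporter gene Slc6a5 were listed at 0, all named after their values were seen.

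Genes of glutamate supply numbered 19, of which 16 were detected, 5 higher and 11 lower, with a median of -0.04. The vesicular glutamate transporter gene Slc17a6, also a sensory neuron marker, had 7 on side B and 128 on side A, 18.3-fold lower. It was the only one past 2-fold, where 0.448% of 12043 genes with a mean of at least 50 were 2-fold lower. The authors' deposited table gives Slc17a6 an adjusted p of 4.82e-06, where 0.318% of 16990 genes passed 0.05 and were lower. The enzymes Got2 and Glul had 8991 and 5649 on side B, and 9766 and 5719 on side A. The carriers Slc1a2 and Slc7a11 had 135 and 117 on side B, against 110 and 93 on side A, and Slc1a6 had 78 on side B and 98 on side A.

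Scaffold and auxiliary proteins of inhibitory receptors numbered 22, with 20 detected, 6 higher and 14 lower, and a median of -0.05. None passed 1.5-fold. Lhfpl4 and Shisa7, which encode membrane partners of GABA-A receptors, had 1632 and 491 on side B, against 1968 and 612 on side A. Gabarap and Gabarapl1, of the family of the GABA-A receptor-associated protein, had 4592 and 16075 on side B, against 3996 and 14580 on side A. Kctd12b and Kctd16, of a family of auxiliary subunits of GABA-B receptors, had 72 and 41 on side B, against 89 and 48 on side A. Kctd12 and Kctd8 of the same family, named after their values were seen, had 1800 and 5 on side B, against 1860 and 15 on side A. Clptm1, which holds GABA-A receptors back in the cell, had 3694 on side B and 3676 on side A.

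Auxiliary and scaffold proteins of glutamate receptors numbered 46 matched genes, with 38 detected, 13 higher and 25 lower, and a median of -0.12. None passed 2-fold, and 2 of the 38 were 1.5-fold lower, against 2.41% lower of 13171 genes. These were the scaffold genes Grip1, with 37 on side B and 60 on side A, and Grip2, with 28 and 43. Both have a mean of 20 to 100, a range in which 9.43% of 2195 genes were lower by that much. Nptx1, a pentraxin that gathers AMPA receptors, had 31 on side B and 44 on side A, and Gsg1l, an AMPA receptor auxiliary subunit, had 29 and 39. The abundant members Grina, Nsf and Dlg2 had 15084, 5079 and 5307 on side B, and 17877, 5368 and 5525 on side A. The authors' deposited table lists Grina with an unadjusted p of 0.0416.

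The response to GABA depends on chloride carried across the membrane. Of 10 chloride transporter and channel genes 8 were detected, 3 higher and 5 lower, with a median of -0.05. Slc12a2, which loads neurons with chloride, had 1628 on side B and 1524 on side A, and Slc12a5, the neuronal chloride extruder, named after its values were seen, had 67 on side B and 65 on side A. Slc12a7, a potassium and chloride cotransporter, had 820 on side B and 863 on side A. The chloride channel genes Clcn2 and Clcn3 had 253 and 3166 on side B, against 290 and 3119 on side A. Ano1, a calcium-activated chloride channel known from nociceptors among other cells, had 38 on side B and 98 on side A, 2.58-fold lower. It alone of the detected genes passed 2-fold, where 0.448% of 12043 genes with a mean of at least 50 were 2-fold lower. For Ano1 the authors' deposited table has an unadjusted p of 0.0205 and an adjusted p of 1. Of the RNA editing enzymes, Adar had 2710 on side B and 2844 on side A, and Adarb2 was listed at 0.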

How the data were processed

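RNA from 4 pools of mouse ganglia was sequenced. Per the submitters' processing notes the tools were DESeq (no version given), HTSeq 0.5.4p1, SAMtools 0.1.19 and TopHat2 2.0.8, and the build was mm9. The sources used here give no roles, settings, annotation or strand option. Per the file headers the deposited table is a DESeq comparison. The 2 deposited group columns hold, per the file headers, group means that DESeq forms from reads divided by size factors, used here as a score of no stated unit and not as counts. Both are whole numbers, with a median ratio of 1 over the 15859 genes above 0 on both sides. The mutant heading stands over the mean of these 2 columns in all 21937 genes, so that column was left out. The deposited fold equals side B divided by side A in all 15859 genes above 0 on both sides, to a relative tolerance of 1e-09. P-values and adjusted p-values are those of the authors' DESeq comparison, copied as deposited. The headings fit no single sample, and no genotype was inferred from values.

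Log2 ratios of B to A used a pseudocount of 1, which understates those of low genes. Plain folds are ratios of deposited values. Exon and coding lengths came from GENCODE M21 (basic set, union of exons of protein-coding transcripts, and longest coding sequence), which is a later build than the authors', so no coordinates were joined. The plan had named a RefSeq transcript length, which was not used here, and the planned comparison of protein sequences was not run. Of 224 list entries 222 matched a symbol directly or through a synonym. Some genes are not reported here, and counts and medians over the set include them. The other detected receptors are given. From each list other than the marker lists, the genes past the authors' adjusted p, the 4 largest log2 ratios and the 3 highest means are given. Most marker lists are given as counts and sums, with some members named. Those of myelinating Schwann cells, endothelial cells and pericytes, fibroblasts, and carotid body or chromaffin cells are not given. None of their detected genes passed 1.5-fold. The receptor set and lists were chosen with earlier results of these data known. The ratio and call steps were tested on simulated data. Alternatives were the pseudocount, the minimum value, the scaling and the gene length. Python 3.11.15, pandas 2.3.3, numpy 2.4.6 and matplotlib 3.10.9 were used.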

Additional observations from a re-analysis of the deposited data

How the results depend on the processing

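With no filter on low values, 2 receptor genes were 2-fold higher and 4 lower (0 and 0 at a mean of at least 50), and 2 were 1.5-fold higher and 9 lower (0 and 3 at a mean of at least 20). The same setting gave 4 higher and 8 lower GABA-A genes (2 and 4), 1 higher NMDA gene (0) and 3 lower metabotropic genes (1). These added genes have means of both sides under 20, and more genes are counted by construction. The share of all genes past these folds without a filter was not worked out, so these counts are not read as a result. A minimum mean of 50 in place of 20 left 0 higher GABA-A genes. An unadjusted p under 0.05 in the authors' deposited table gave 2 genes, against 0 with the adjusted p. A pseudocount of 5 or 0.5 and equal column sums, which shift log2 ratios by 0.02, kept each count within 1.5 times and the median log2 ratio within 0.1. Of 78 single-gene values under these settings 77 moved by less than 0.1 on the log2 scale, none changed sign, and Grin3b moved to -0.68 with a pseudocount of 5. Coding length, or no length correction, left the same 10 genes highest, but in another order. Whether the values are counts is not known, so no counting error limits them here, and no difference has a replicate. No paired analysis was possible because the table has 1 column per side and the labels give no replicate numbers.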
